A study of Mus musculus with 12 samples.

Results

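The genes described here are the ligands and receptors of 4 axon guidance systems: Eph receptors with their ephrins, semaphorins with plexins and neuropilins, Slits with Robos, and netrins with their receptors. They were chosen by symbol, with earlier results of these data known. The symbol patterns of these families found 70 of the 22609 genes in the count tables, 35 ligands and 35 receptors. The counts came from trigeminal ganglia (TG) and dorsal root ganglia (DRG), which hold the cell bodies of the sensory neurons of the head and of the trunk and limbs. Ganglia of naive C57BL mice (C57BL/6J in the methods), aged 3 to 4 months by the labels and younger by the methods of the study, were dissociated, and a Percoll density gradient was used to collect a fraction enriched for sensory neurons. The DRG were lumbar, the females were in the estrous phase, and no group carried a transgene or had been treated. There were 12 libraries, namely 3 of female DRG, 3 of male DRG, 3 of female TG and 3 of male TG. The study asked how the sexes differ in each ganglion, and the same libraries allow TG to be set against DRG.

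Axon guidance proteins steer growing nerve fibres by attraction or repulsion. Eph receptors are tyrosine kinases that bind ephrins held on the surface of neighbouring cells, with EphA receptors preferring the lipid-anchored ephrin-A proteins and EphB receptors the membrane-spanning ephrin-B proteins. Semaphorins act through plexins, and most of the secreted class 3 semaphorins need a neuropilin as a binding partner. Slits repel axons through Robo receptors, and netrins attract through Dcc and Neo1 or repel through the Unc5 proteins. Many of these genes are also expressed by the glia and vessels of adult ganglia.

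Reads assigned to genes ranged from 7511765 to 15396090 per library. The floor of detection was taken as 3 counts, or 0.195 to 0.399 CPM (a gene's count brought to a common library total) before TMM scaling. The CPM values of genes are also scaled by TMM factors, which ran from 0.8902 to 1.12. In every group the library numbered 3 stood apart from those numbered 1 and 2. The chi-square of the counts per degree of freedom was 13.5 to 31.2 between the libraries numbered 1 and 2 and 51.5 to 105.5 against number 3, so values without these libraries are also given where they change a call between the ganglia. The sensory neuron markers were abundant in every library, with 12 genes summing to 6966 to 13328 CPM, but markers of other cells were present as well. Satellite glia markers summed to 1435 to 2881 CPM, Schwann cell markers to 2253 to 3539 CPM, fibroblast markers to 589 to 1671 CPM and endothelial markers to 176 to 557 CPM. Hemoglobin genes and the central markers Mog, Neurod6 and Slc32a1 were at or under the floor. The red blood cell list, which also holds Alas2, summed to 4.4 to 20 CPM in TG and 2.8 to 20.3 CPM in DRG. The central list, which also holds Mobp and Gad1, summed to 0 to 4.41 CPM in TG and 0 to 4.16 CPM in DRG. In such mixed RNA, fewer cells of a type and less RNA per cell cannot be told apart, and a guidance gene cannot be assigned to neurons.

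The guidance genes that differed most between the ganglia were EphA receptors, and the 3 genes that passed the test were higher in TG. Epha6 was 2.65-fold and Epha7 2.7-fold higher in TG than in DRG, and the semaphorin Sema7a was 2.12-fold higher. The next in order of p were Robo1 and Epha4, about as far apart in fold but not past the adjusted threshold. Of the 65 guidance genes with enough counts to be tested, 3 passed an adjusted p of 0.05 in edgeR's quasi-likelihood test, against 0.964% of all 14829 genes tested in either direction and 0.627% in the direction of TG. For 4 of the 65, namely Epha6, Epha7, Epha4 and Robo1, the 6 TG values and the 6 DRG values did not overlap, against 1.36% of all genes tested. At an unadjusted p of 0.05 there were 12 of 65, 10 higher and 2 lower in TG, against 8.83% of all genes. The median log2 fold change of the 65 genes was 0.11 and that of all genes was -0.01, and 37 of the 65 were higher in TG. Without the libraries numbered 3, 11 of the guidance genes passed in edgeR, 8 of them higher and 3 lower in TG, and 814 of all genes did.

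The stretches of 250 bases before the start site are printed for the 3 genes that passed and for Epha4, since all 4 were higher in TG and a reader may want to see what precedes them. They come from the RefSeq promoter table, placed on NCBIM37 (mm9) by an exact match, each matching at 1 place. Capitals mark GGGCGG, the core of the GC box that Sp-family factors bind, and TAAT, the core that homeodomain factors bind, on either strand, so that CCGCCC and ATTA are marked too. These motifs do not overlap in the 4 stretches.
Epha6: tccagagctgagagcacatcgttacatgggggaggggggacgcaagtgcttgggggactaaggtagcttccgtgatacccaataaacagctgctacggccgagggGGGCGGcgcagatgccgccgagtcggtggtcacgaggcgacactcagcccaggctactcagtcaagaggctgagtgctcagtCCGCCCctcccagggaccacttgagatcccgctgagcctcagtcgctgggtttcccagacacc
Epha7: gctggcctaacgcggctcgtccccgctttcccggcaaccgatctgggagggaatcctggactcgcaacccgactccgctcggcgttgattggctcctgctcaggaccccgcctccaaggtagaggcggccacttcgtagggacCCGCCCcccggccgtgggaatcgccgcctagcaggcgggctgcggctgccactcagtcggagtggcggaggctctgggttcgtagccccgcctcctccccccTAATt
Epha4: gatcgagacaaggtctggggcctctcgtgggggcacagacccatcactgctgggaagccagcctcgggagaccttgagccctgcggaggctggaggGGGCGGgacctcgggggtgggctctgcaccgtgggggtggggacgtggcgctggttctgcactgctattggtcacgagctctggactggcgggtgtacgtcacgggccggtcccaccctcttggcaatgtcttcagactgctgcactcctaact
Sema7a: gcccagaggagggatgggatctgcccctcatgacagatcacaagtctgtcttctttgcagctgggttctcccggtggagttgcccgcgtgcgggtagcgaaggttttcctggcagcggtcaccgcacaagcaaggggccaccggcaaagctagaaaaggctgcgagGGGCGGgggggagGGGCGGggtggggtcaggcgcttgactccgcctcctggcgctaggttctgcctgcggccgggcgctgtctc
The Epha6 stretch is chr16:60605358-60605607 on the minus strand, that of Epha7 is chr4:28740031-28740280 on the plus strand, that of Epha4 is chr1:77511664-77511913 on the minus strand and that of Sema7a is chr9:57787669-57787918 on the plus strand. GGGCGG was found 2 times before Epha6 and Sema7a and 1 time before Epha7 and Epha4. TAAT was found 1 time, before Epha7, and its letters are not in the other 3 windows. Over all 32851 promoters of this length in the table, 32.7% held GGGCGG and 54.9% held TAAT. The 76 promoters of guidance genes among them belonged to 60 genes, some with more than 1, and the other guidance genes had none there. Of these 76, 71.1% held GGGCGG and 36.8% held TAAT. Their median GC content was 64.4%, compared with 52.4% over all promoters.

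All 6 EphA receptors that could be tested were higher in TG on the log2 scale, with a median of 0.98, and 2 passed the adjusted test. The direction of all 6 was the same with DESeq2, with RLE factors, with library totals and without the libraries numbered 3. In female libraries alone Epha5 was at -0.51 and Epha2 at -0.00, and with 1 library left out Epha5 was as low as -0.06. Epha6 (ENSMUSG00000055540.8, chr16:59653309-60605357, minus strand) was the most abundant of them per length. Its level ran from 52.0 to 90.8 CPM with a median of 67.6 in the 6 TG libraries and from 18.3 to 45.0 CPM with a median of 23.3 in the 6 DRG libraries. Every TG library was above every DRG library. The means were 68.2 ± 14.4 and 26.4 ± 9.99 CPM (SD, n = 6 each), and the log2 fold change was 1.41 (SE 0.20, adjusted p = 0.000949, edgeR). Its exons share 107 bases with a pseudogene model, Gm9017, on the other strand.

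Epha7 (ENSMUSG00000028289.6, chr4:28740281-28894649, plus strand) ran from 18.5 to 46.6 CPM with a median of 28.7 in TG and from 7.56 to 14.9 CPM with a median of 10.9 in DRG. The ganglia did not overlap here either, and the 3 male TG libraries were the highest of all. The means were 30.6 ± 10.6 and 11 ± 2.70 CPM (SD, n = 6 each), and the log2 fold change was 1.43 (SE 0.25, adjusted p = 0.00517, edgeR). Both Epha6 and Epha7 passed in each of the 12 fits that left out 1 library. With the libraries numbered 1 and 2 only, the log2 fold changes were 1.35 and 1.33 (adjusted p = 0.00328 and 0.012, edgeR). Within the sexes, Epha6 had 1.65 (SE 0.30) in females and 1.18 (SE 0.28) in males, and Epha7 had 0.99 (SE 0.40) and 1.88 (SE 0.29). With 3 libraries against 3, the adjusted p of Epha6 was 0.235 and 0.132, and that of Epha7 was 1 in females and 0.0144 in males (edgeR).

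Epha4, which binds ephrins of both classes, ran from 24.7 to 49.6 CPM with a median of 33.8 in TG and from 7.66 to 24.6 CPM with a median of 18.3 in DRG. The ranges almost touched without overlapping. The log2 fold change was 1.01 (SE 0.27, adjusted p = 0.1, edgeR), and it was 1.13 with an adjusted p of 0.0261 in edgeR without the libraries numbered 3. Epha4 also passed in DESeq2 (adjusted p = 0.0405). In edgeR it passed with no filter on low counts (adjusted p = 0.0483) and with the GC and length correction (adjusted p = 0.0415), but not with RLE factors (adjusted p = 0.121). Of the 12 edgeR fits that left out 1 library, it passed in 1, without male DRG 3. Of the other tested EphA receptors, Epha5 had a log2 difference of 0.06, and Epha2 and Epha3 had 0.58 and 0.95 with standard errors of 0.50 and 0.79. Epha1, Epha8 and Epha10 had too few reads to be tested.

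**Figure D1:**
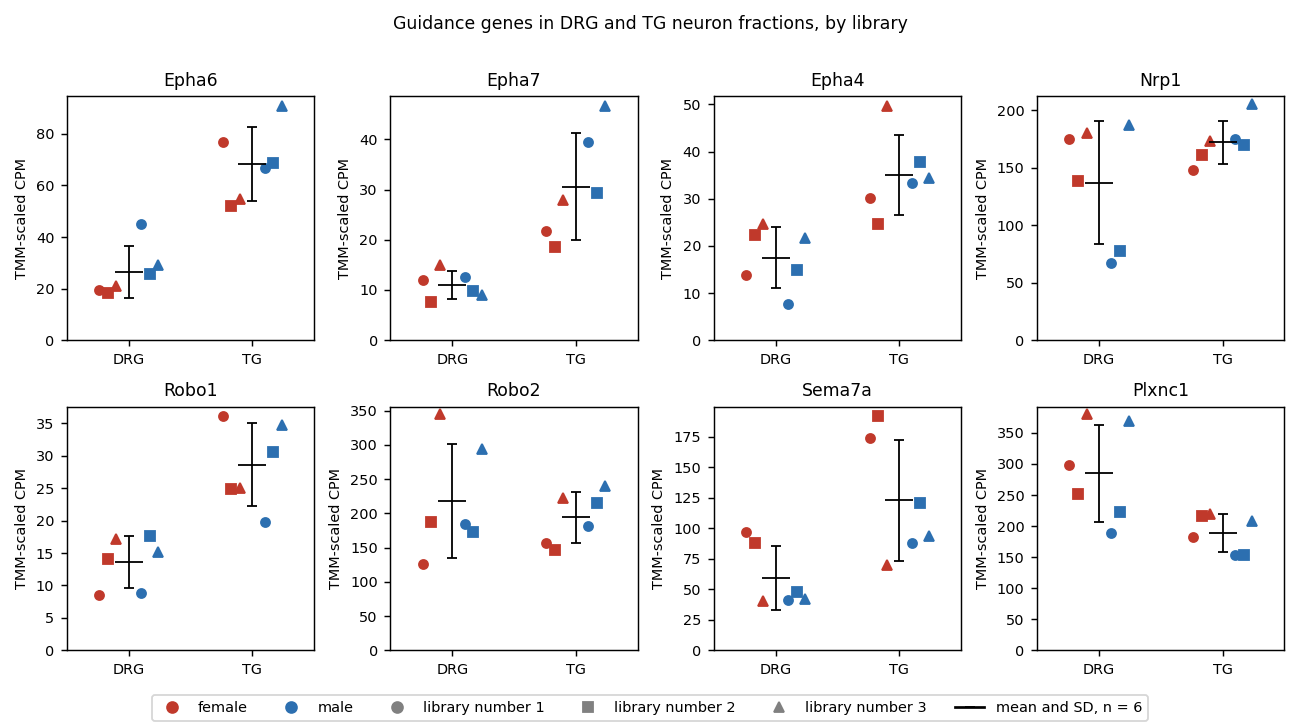
TMM-scaled CPM of 8 guidance genes in each of the 12 libraries, DRG at the left and TG at the right of each panel. Colours mark the sex, shapes the library number, and the bar is the mean with its SD (n = 6). Epha6, Epha7, Epha4 and Robo1 have no TG library below a DRG library, whereas Nrp1, Robo2, Sema7a and Plxnc1 overlap.

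Summed over the 9 EphA genes and divided by exon length, the level was 21.1 to 34.0 CPM per kilobase in TG, median 26.0, and 11.5 to 14.0 in DRG, median 12.8. The ephrin-A ligands summed to 14.8 to 32.4 CPM per kilobase in TG and to 12.2 to 36.1 in DRG, with no separation. The EphA sum relative to the ephrin-A sum had a median of 1.06 in TG (0.719 to 1.95) and 0.492 in DRG (0.319 to 1.03). These sums were chosen with the values known and carry no test. Of the EphA sum, Epha6 alone made up 43.7 to 55.9% in TG libraries and 27.8 to 60.8% in DRG libraries.

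No EphB receptor or ephrin passed the adjusted test. None of the 5 EphB genes reached an unadjusted p of 0.05, and their median log2 fold change was -0.02. Ephb6, a kinase-inactive member and the most abundant per length, ran from 12.5 to 33.6 CPM with a median of 23.1 in TG and from 7.17 to 30.2 CPM with a median of 20.6 in DRG. These ranges overlapped almost wholly, and the log2 difference was 0.02 (SE 0.27). Efna1, by far the most abundant ephrin-A per length, ran from 19.5 to 51.6 CPM with a median of 31.1 in TG and from 21.2 to 56.8 CPM with a median of 35.1 in DRG, a log2 difference of -0.15 (SE 0.27). Efnb2, an ephrin-B also known from arteries, ran from 35.4 to 63.6 CPM with a median of 49.4 in TG and from 17.3 to 49.4 CPM with a median of 34.2 in DRG. Its log2 difference was 0.51 (SE 0.22, unadjusted p = 0.0317 and adjusted p = 0.478, edgeR), and the ranges overlapped. Efna4 had the widest estimate of all, with a log2 value of 3.54 and a standard error of 1.71. It rests on at most 18 reads in a TG library and at most 5 in a DRG library, 4 of the 6 DRG libraries had none, and 168 bases of its exons lie opposite another gene, so its fold is not read here.

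The semaphorins held the third gene that passed. Sema7a (ENSMUSG00000038264.7, chr9:57787920-57810671, plus strand) encodes a lipid-anchored semaphorin that binds plexin C1 and integrins. It ran from 70.2 to 192 CPM with a median of 107 in TG and from 40.1 to 96.8 CPM with a median of 44.9 in DRG. Here 2 female DRG libraries, numbered 1 and 2, lay within the TG range, and the female TG library numbered 3 was the lowest of TG. The means were 123 ± 49.4 and 59.4 ± 25.9 CPM (SD, n = 6 each), and the log2 fold change was 1.08 (SE 0.25, adjusted p = 0.0479, edgeR). The call was near the threshold. It held in 2 of the 12 fits that left out 1 library, without female DRG 1 and without female TG 3, and the adjusted p ran from 0.00399 to 0.157 over the 12, while the log2 fold change stayed between 0.93 and 1.25. Without the libraries numbered 3 it was 1.11 with an adjusted p of 0.000647 in edgeR. In male libraries alone Sema7a passed the adjusted test, but in female libraries alone it did not reach an unadjusted p of 0.05 (edgeR). With RLE factors in edgeR it did not pass the adjusted test.

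Plxnc1, the receptor of Sema7a and the most abundant guidance gene per length, had the opposite direction. It ran from 153 to 220 CPM with a median of 195 in TG and from 189 to 381 CPM with a median of 275 in DRG. The ranges overlapped, with male DRG 1 inside the TG range. The means were 189 ± 30.6 and 285 ± 78.4 CPM (SD, n = 6 each), and the log2 difference was -0.60 (SE 0.19), with an adjusted p of 0.222 in edgeR and 0.0574 in DESeq2. Without the libraries numbered 3 it was -0.45 with an adjusted p of 0.0362 in edgeR. Per length and within a library, Sema7a stood at 0.681 to 2.04 of the level of Plxnc1 in TG, median 1.46, and at 0.225 to 0.747 in DRG, median 0.463. This ratio was also chosen with both values known and is given as a description.

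**Figure D2:**
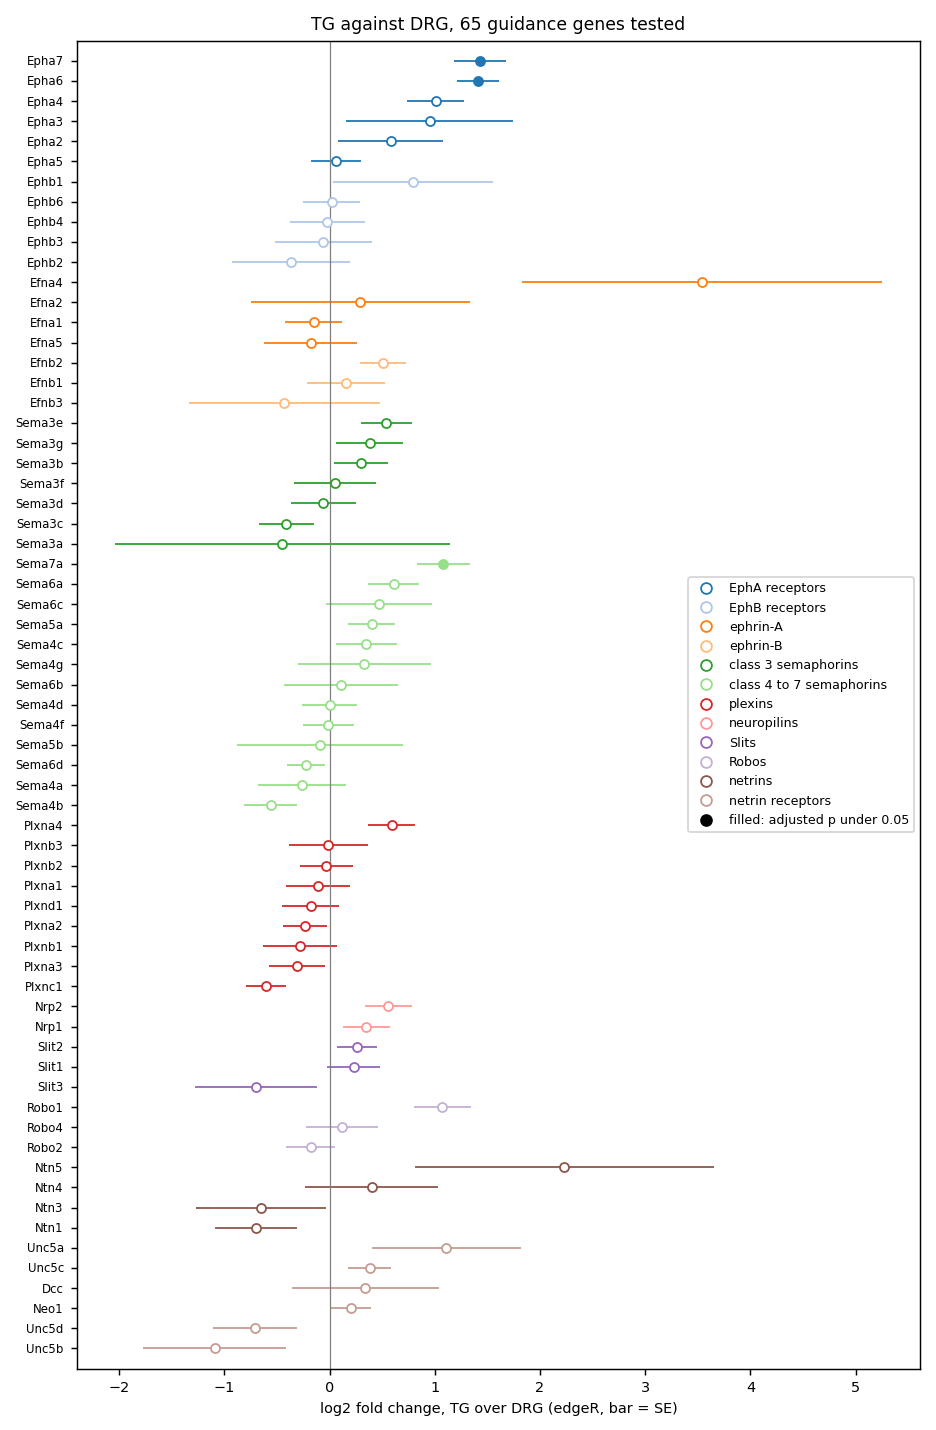
Log2 fold change of TG over DRG for the 65 guidance genes tested, grouped by family and with the standard error as the bar. Filled points passed an adjusted p of 0.05 (Epha7, Epha6 and Sema7a). All 6 EphA genes lie right of 0, and 8 of 9 plexins lie left of it (6 of 9 when scaled by library totals alone).

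Of the remaining class 4 to 7 semaphorins, Sema6a had a log2 difference of 0.61 and Sema4b of -0.56, both at an unadjusted p below 0.05 and neither past the adjusted threshold. Without the libraries numbered 3, Sema4b was at -0.70 (adjusted p = 0.0172, edgeR) and Sema6a at 0.46 (adjusted p = 0.218, edgeR). For the 13 genes of these classes, 8 were higher and 5 lower in TG, with a median of 0.11. Among the 7 class 3 semaphorins, secreted ligands of which most need neuropilins, the median was 0.05. Sema3e, which can act through plexin D1 without a neuropilin, had a log2 difference of 0.54 (SE 0.24, adjusted p = 0.531, edgeR). It was at 0.86 without the libraries numbered 3 (adjusted p = 0.0494, edgeR). Sema3b was the most abundant of them per length, and it ran from 68.9 to 205 CPM with a median of 116 in TG and from 61.1 to 143 CPM with a median of 111 in DRG. The ganglia overlapped widely, with a log2 difference of 0.30 (SE 0.26). Sema3a, a classic repellent of sensory axons, was almost absent from these fractions, with 0 to 15 reads in TG libraries and 0 to 42 in DRG libraries. No reads were found in 2 TG and 3 DRG libraries, which at this depth allows a level up to the floor given above.

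Plexins were lower in TG for 8 of the 9 genes, with a small median of -0.18 (6 of 9 when scaled by library totals alone), and none passed the adjusted test. The exception was Plxna4, at a log2 difference of 0.59 (SE 0.22, adjusted p = 0.347, edgeR). In female libraries alone Plxna1, Plxnb2 and Plxnb3 were also higher in TG, at 0.16, 0.14 and 0.09. Plxna2, Plxna3, Plxnb1, Plxnc1 and Plxnd1 stayed lower there. With 1 library left out, Plxna1, Plxnb2, Plxnb3 and Plxnd1 were as high as 0.06, 0.11, 0.31 and 0.07, while Plxna2, Plxna3, Plxnb1 and Plxnc1 stayed lower. Without the libraries numbered 3, Plxna4 was at 0.65 (adjusted p = 0.0104, edgeR) and Plxnb1, a receptor of Sema4d, at -0.65 (adjusted p = 0.0429, edgeR). With all libraries Plxnb1 was at -0.28 (SE 0.35, adjusted p = 0.957, edgeR). The class A plexins act with neuropilins, and the other 3 of them, Plxna1, Plxna2 and Plxna3, had log2 differences of -0.11, -0.23 and -0.31. Of the neuropilins, Nrp1 ran from 148 to 205 CPM with a median of 172 in TG and from 66.8 to 187 CPM with a median of 157 in DRG. The lowest 2 DRG libraries, male 1 and male 2, were far below the rest, which overlapped with TG. The log2 difference was 0.35 (SE 0.22, adjusted p = 0.765, edgeR), and it was 0.62 with an adjusted p of 0.0116 in edgeR when the libraries numbered 3 were left out. Nrp2 had a log2 difference of 0.56 (SE 0.22, adjusted p = 0.402, edgeR), and 0.49 without those libraries (adjusted p = 0.136, edgeR). Plxna1 shares 970 bases of its exons with a gene on the other strand, and since the strand setting of the counting is not given in the sources used here, its level is uncertain.

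Among the Robos, Robo1 lay higher in TG in these libraries, while Robo2 had a small difference whose sign depended on the libraries used. Robo1 ran from 19.8 to 36.2 CPM with a median of 27.9 in TG and from 8.56 to 17.7 CPM with a median of 14.7 in DRG. No TG library was as low as the highest DRG library. The means were 28.6 ± 6.39 and 13.6 ± 4.03 CPM (SD, n = 6 each), and the log2 fold change was 1.07 (SE 0.27, adjusted p = 0.0686, edgeR). It passed in DESeq2 (adjusted p = 0.0167) and in none of the 12 edgeR fits that left out 1 library. Without the libraries numbered 3 it was 1.18 with an adjusted p of 0.0413 in edgeR, and it also passed in edgeR with no filter on low counts (adjusted p = 0.0454) and with the GC and length correction (adjusted p = 0.0483). Robo2, the far more abundant neighbour, ran from 147 to 240 CPM with a median of 198 in TG and from 126 to 345 CPM with a median of 186 in DRG, a log2 difference of -0.18 (SE 0.23). Without the libraries numbered 3 the log2 difference of Robo2 was 0.06. The 2 highest values were the DRG libraries numbered 3. Robo4, known from endothelial cells, had a log2 difference of 0.12, and Robo3, the commissural Robo, was not tested for want of reads.

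No Slit or netrin passed the adjusted test between the ganglia. Slit1, the most abundant Slit per length, ran from 32.2 to 96.7 CPM with a median of 51.1 in TG and from 23.5 to 92.6 CPM with a median of 45.3 in DRG, a log2 difference of 0.23 (SE 0.25). Ntn4, a netrin of basement membranes, ran from 0.158 to 15.8 CPM with a median of 6.64 in TG and from 2.99 to 12.1 CPM with a median of 5.10 in DRG. Female TG 3 was under the floor for this gene, whereas the other 2 female TG libraries had 12.4 and 15.8 CPM. Ntn1, the netrin best known as an attractant, had a log2 difference of -0.70 (SE 0.39, adjusted p = 0.673, edgeR). Ntn5 had 0 reads in 3 DRG libraries and 407 bases of exon opposite another gene, and its fitted value is not read.

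No netrin receptor passed either. Neo1 ran from 66.3 to 107 CPM with a median of 83.6 in TG and from 56.0 to 111 CPM with a median of 66.8 in DRG, a log2 difference of 0.20 (SE 0.19). Dcc was low, with a mean of 4.24 CPM in TG and 4.33 CPM in DRG. The Unc5 genes went in both directions without passing, from -1.09 (SE 0.68) for Unc5b to 1.11 (SE 0.71) for Unc5a.

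Per length, the most abundant guidance genes over the 12 libraries were Plxnc1, Sema7a, Sema3b, Nrp1, Efna1 and Plxnd1, in this order. In CPM per kilobase of exon, Plxnc1 was at 26.8 in TG and 40.5 in DRG, Sema7a at 37.4 and 18.0, and Sema3b at 30.6 and 24.4. Sema7a thus led in TG and Plxnc1 in DRG. By raw abundance, 45 of the 70 genes had a mean of at least 10 CPM and 9 had at least 100 CPM. The 5 genes not tested, Epha1, Epha8, Epha10, Efna3 and Robo3, had at most 15 reads in any library. Ligands made up 50.6% of the summed level of all guidance genes per length in TG and 48.5% in DRG, and plexins 21.4% and 27.7%.

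**Figure D3:**
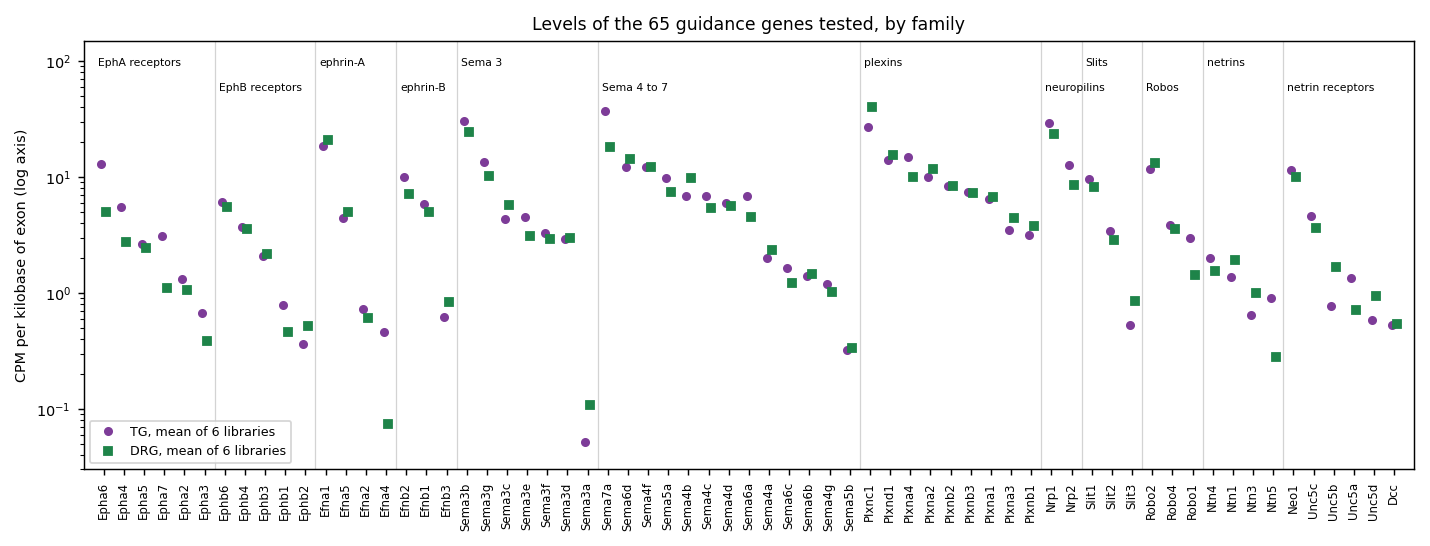
Mean CPM per kilobase of exon of the 65 guidance genes tested, on a log axis, in TG (circles) and DRG (squares), each the mean of 6 libraries and ordered by family. Sema7a is the highest gene in TG at 37.4 and Plxnc1 in DRG at 40.5.

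Chromosome 16 holds 6 of the guidance genes, and 4 of them lie in a row on NCBIM37. They are Epha6 (chr16:59653309-60605357), Epha3 (chr16:63543364-63863984), Robo1 (chr16:72663394-73046340) and Robo2 (chr16:73892551-74412070). Their log2 differences between TG and DRG were 1.41, 0.95 (SE 0.79), 1.07 and -0.18. The last of them, Robo2, lies next to Robo1. Its difference was smaller than its SE of 0.23, and it was 0.06 without the libraries numbered 3.

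No summed cell type marker list reached a p of 0.05 between the ganglia in an exact permutation test, with ratios of TG to DRG from 0.798 to 1.3. Such p-values do not show that the sums were equal. The summed sensory neuron markers of TG were 0.798 of those of DRG (two-sided exact permutation test over the 12 libraries, p = 0.102), satellite glia markers were at 1.05 (p = 0.71), Schwann cell markers at 0.954 (p = 0.604) and endothelial markers at 1.08 (p = 0.745). Fibroblast markers were at 0.812 (p = 0.247), mural markers at 0.879 (p = 0.6) and macrophage markers at 1.3 (p = 0.392), all by the same exact test. None of the marker genes tested passed an adjusted p of 0.05 in edgeR, and their part in the values above was not tested.

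Genes that act beside the guidance receptors were read from a list of 70 signalling partners, adhesion partners and cytoskeletal effectors, of which 67 were in the files and 66 were tested. Their median log2 fold change of TG over DRG was 0.05, and 1 passed, higher in TG, against 0.627% of all genes higher in TG. It was Ntng1 (netrin-G1), a lipid-anchored relative of the netrins that binds the ligand NGL-1 rather than Dcc, and it ran from 68.3 to 117 CPM in TG and from 14.0 to 38.6 CPM in DRG. The ganglia did not overlap. The means were 91.1 ± 18.0 and 26.9 ± 9.27 CPM (SD, n = 6 each), and the log2 fold change was 1.75 (SE 0.24, adjusted p = 0.000601, edgeR). This was larger than the change of any guidance gene that passed. At an unadjusted p of 0.05, 10 of the 66 were higher in TG and 0 lower, against 8.83% of all genes in either direction.

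Between the sexes, the guidance genes in TG leaned to females. Of 64 tested in the 6 TG libraries, 55 had the higher level in females, with a median log2 fold change (female over male) of 0.60 compared with 0.05 over all 14009 genes. By the study's criteria, a fold change above 2, an unadjusted p under 0.05 and a mean CPM above 1 in the higher sex, where CPM stands in for the RPKM of the study, 8 of 64 were higher in females and 0 in males, against 5.14% of all genes higher in females. They were the Eph receptors Ephb4 and Ephb6, the ligands Sema3f, Sema4d, Slit1 and Ntn1, and the receptors Plxnd1 and Robo4. The count depended on single libraries. It was 5 without female TG 1, 4 without female TG 2 (where Epha5 was higher in males), 14 without male TG 3 and 22 without female TG 3. At an unadjusted p of 0.05 alone there were 17, 15 higher in females and 2 in males (Epha5 and Epha7), against 20.7% of all genes. No guidance gene passed an adjusted p of 0.05 in edgeR, where the smallest adjusted p of any gene outside the sex-chromosome controls was 0.118, while DESeq2 called 6 of 53, all higher in females, against 6.26% of all genes.

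Ephb6 had the smallest p. Its values were 33.1, 33.3 and 33.6 CPM in female TG and 12.7, 13.1 and 12.5 CPM in male TG. The sexes were far apart and each was tight, and the log2 fold change was 1.44 (SE 0.26, adjusted p = 0.154 in edgeR and 0.00259 in DESeq2). Slit1 was at 96.7, 78.5 and 51.9 CPM in females and 32.2, 34.0 and 50.2 CPM in males, where the libraries numbered 3 nearly met, and the log2 fold change was 1.02 (SE 0.30, adjusted p = 0.158, edgeR). Sema4d, a transmembrane semaphorin, was at 55.1, 71.4 and 38.8 CPM against 12.9, 19.3 and 34.5 CPM. It too had its closest values in the libraries numbered 3, and its log2 fold change was 1.36 (SE 0.38, adjusted p = 0.154, edgeR). Plxnd1, a plexin known from vessels, was at 158, 176 and 80.5 CPM against 43.5, 61.6 and 90.1 CPM. Here the libraries numbered 3 reversed the order, and the log2 fold change of 1.14 (SE 0.35) was 1.67 without them.

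The 4 remaining genes had lower levels. Ntn1 had means of 13.1 ± 4.04 and 4.07 ± 2.26 CPM (SD, n = 3 each) and a log2 fold change of 1.74, and Sema3f had 16.6 ± 8.38 and 6.17 ± 1.65 CPM and 1.48. Robo4 had 22.1 ± 3.96 and 9.73 ± 1.31 CPM and 1.23, and Ephb4 had 23.9 ± 9.12 and 10.6 ± 4.00 CPM and 1.22. Of these, Robo4 and Ntn1 did not overlap between the sexes. In TG 13 of the 70 guidance genes did not, and the share over all genes was not counted, so this is a description. Epha7 went the other way. Female TG libraries averaged 22.7 ± 4.83 CPM and male ones 38.4 ± 8.65 CPM, and the log2 difference was -0.72 (SE 0.28).

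In DRG, 51 of 62 guidance genes tested had a higher level in females, with a median of 0.47 compared with 0.02 over all genes. By the study's criteria 2 of 62 were higher in females, Epha2 and Plxna3, against 2.01% of all 13963 genes. The count was 0 without female DRG 1 or male DRG 2, 1 without female DRG 2, 5 without male DRG 1 and 13 without female DRG 3, where Dcc was higher in males. Epha2, an Eph receptor of epithelia and vessels, was at 11.8, 6.94 and 4.83 CPM in female DRG and 2.99, 2.44 and 0.630 CPM in male DRG, and the log2 fold change was 1.98 (SE 0.88, adjusted p = 0.405, edgeR). The sexes did not overlap, although the male values were near the floor in 1 library. In DRG 7 of the 70 guidance genes had no such overlap, and the share over all genes was not counted. Plxna3, on the X chromosome, was at 75.4, 43.7 and 26.9 CPM against 31.0, 15.3 and 18.7 CPM, with overlap, and the log2 fold change was 1.18 (SE 0.42, adjusted p = 0.328, edgeR). Its TG means were 36.3 ± 12 CPM for the 3 female libraries and 19.0 ± 0.673 CPM for the 3 male ones (SD), which is 0.98 on the log2 scale. At an unadjusted p of 0.05 there were 8 of 62 in DRG, against 11.8% of all genes, and none passed the adjusted test in edgeR, where the smallest adjusted p of any gene outside the sex-chromosome controls was 0.307, or in DESeq2, which gave 28 of the 62 an adjusted p.

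The lean to females moved with the GC content of the genes. Across the 64 genes in TG, the log2 fold change of female over male correlated with the GC percent of the exons (Pearson r = 0.74, Spearman rho = 0.76), and across all 13830 genes with a GC value r was 0.49. These genes share their 6 libraries and are not independent, so the correlation is a description. The 8 genes that met the criteria had a median GC of 58.8%, the other 56 had 54.2%, and the 6 EphA genes tested had 43.8%. When each library was corrected for GC content and gene length, 0 of the 64 met the criteria, 37 were higher in females, the median was 0.12 and r was 0.12. Ephb6 then had a log2 fold change of 0.75, Sema4d 0.87, Slit1 0.14 and Plxnd1 0.15. In DRG the same correction left 0 of 62 by the criteria, a median of 0.20 and r at 0.39 from 0.52. The correction subtracts each library's own trend with GC content and length, so a fall of r was built in. It would also take out a sex difference that moves with GC content, and the cause of the lean was not tested. The differences of the 65 guidance genes between TG and DRG did not move with GC content (r = -0.02). Across all 14616 genes with a GC value, r was 0.09 and rho 0.15. After the correction Epha6, Epha7 and Sema7a had log2 fold changes of 1.37, 1.39 and 0.95 between TG and DRG, all with adjusted p under 0.05 in edgeR.

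**Figure D4:**
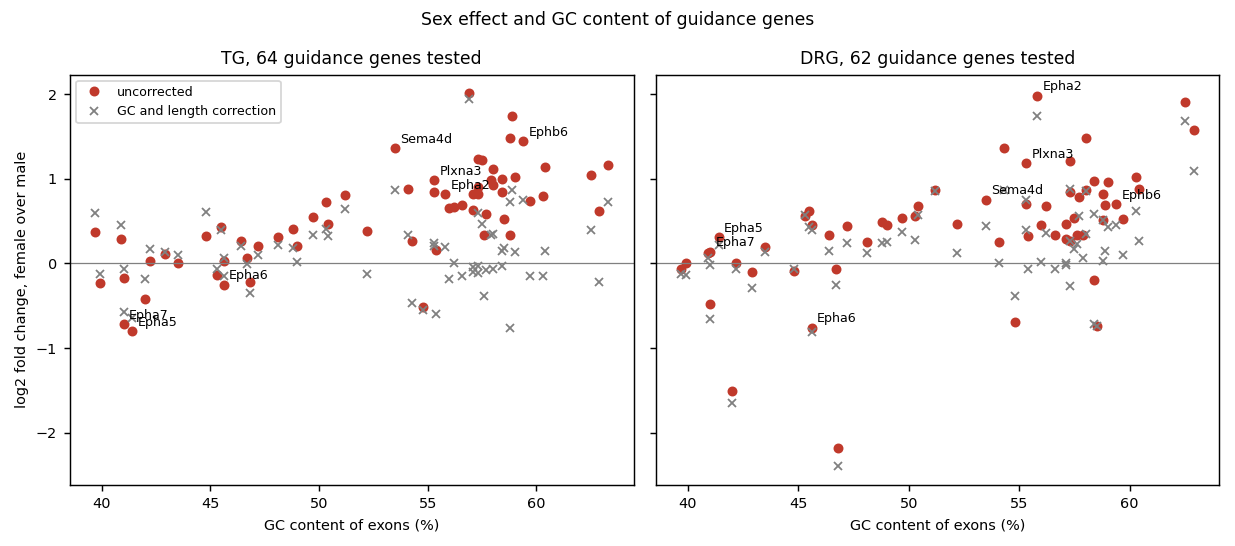
Log2 fold change of female over male against the GC percent of the exons, for the 64 guidance genes tested in TG and the 62 in DRG. Red points are uncorrected values and grey crosses those after the GC and length correction. In TG the red points climb with GC content (r = 0.74) and the crosses do not (r = 0.12). The correction subtracts such a trend by design.

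Other measures also differed between female and male libraries. Reads outside annotated genes were 43.5 to 49.1% of the reads in and outside genes in female TG and 37.6 to 47.9% in male TG, and 46.4 to 50.4% and 38.2 to 42.6% in DRG, without overlap. The endothelial markers summed to 336 to 546 CPM in female TG and 270 to 372 CPM in male TG, and to 292 to 557 and 176 to 304 CPM in DRG. The sensory neuron markers summed to a median of 6991 CPM in female and 10179 CPM in male TG, and of 7792 and 12454 CPM in DRG. The fibroblast markers had medians of 1310 and 724 CPM in TG and 1659 and 943 CPM in DRG, and the macrophage markers 270 and 160 CPM in TG and 221 and 112 CPM in DRG. Satellite glia markers had medians of 2216 and 2572 CPM in TG and 2424 and 2708 CPM in DRG. Their part in the sex differences was not tested. Scaling by library totals alone moved the median sex effect of all genes in TG, 0.05, to 0.16, and that in DRG, 0.02, to 0.19, and the guidance genes then had medians of 0.72 and 0.66. With that scaling the criteria were met in TG by 1030 genes with the higher level in females and by 159 with the higher level in males, compared with 720 and 313. In DRG these counts were 582 and 161, compared with 280 and 409.

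Whether the sex effect differed between the ganglia was tested in a model of all 12 libraries. No gene passed an adjusted p of 0.05 in edgeR or in DESeq2, and at an unadjusted p of 0.05 there were 292 of 14829 genes in edgeR and 435 in DESeq2. Among the guidance genes 1 of 65 reached it in edgeR, against 1.97% of all genes. It was Epha5, whose log2 sex effect was -0.80 in TG and 0.31 in DRG, a difference of -1.16 (unadjusted p = 0.0278 in edgeR). For Ephb6 the difference was 0.71 and for Slit1 0.00. The larger number of guidance genes that met the criteria in TG than in DRG therefore does not show that the sex effect differed between the ganglia.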

How the data were processed

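RNA was sequenced from 12 libraries of Percoll-enriched sensory neuron fractions, and the group and number of each came from its title. The study's methods describe removal of ribosomal RNA, dUTP stranded libraries and short single reads, and the submitters' processing notes name bcl2fastq, TopHat2, HTSeq and the mm9 build. The values that the authors deposited are unnormalized HTSeq counts of reads for each gene symbol, and summary lines that name no gene were left out (reads outside annotated genes were 37.6 to 50.4%). The annotation and the strand setting of the counting were not given in the sources used here. Without strand, reads of overlapping antisense genes cannot be told apart, and reads aligned to several places were not counted. Whether a TG and a DRG library of one number share animals is not stated, and p-values measure the spread between these libraries. Amplified reads are not independent molecules, so the floor of 3 counts covers counting error only.

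Counts were fitted with edgeR 4.0.16 in R 4.3.3 (filterByExpr, TMM factors, quasi-likelihood F-test, Benjamini-Hochberg adjustment over all genes tested). TG was set against DRG over the 12 libraries with 4 group means, and the sexes were compared within each ganglion over 6. Counts of sex calls leave out Xist, Tsix and the Y-linked Ddx3y, Uty, Kdm5d and Eif2s3y. DESeq2 1.42.0 was an alternative, and limma 3.58.1 gave the loess curves of the GC and length correction. The scripts were tested on simulated data. Exon lengths, GC content and positions came from the GENCODE annotation of NCBIM37 (mm9), which matched all 70 guidance genes. Values are mean ± SD of TMM-scaled CPM. Genes described by library were those with an adjusted p under 0.05 or without overlap between the ganglia, the most abundant of each family per length, and those meeting the study's sex criteria. Other genes were named with few values. The members and the lists were chosen with earlier results of these data known.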

Additional observations from a re-analysis of the deposited data

Results flagged for a closer look

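Among the 23 guidance genes described by library, each ganglion was checked for a library far from the other 5, which gave 46 groups, and chance flags about 1 in 20 of such groups. In 1 group a library stood out. Ntn4 in DRG was at 12.1 CPM in female DRG 2, whereas the other DRG libraries were between 2.99 and 5.83 CPM, and the gap to the nearest of them was 0.689 of the whole range (critical value 0.625).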

How the results depend on the processing

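Of the guidance genes, 3 passed for TG against DRG in the report, and 143 of all genes. The counts were 5 and 347 with DESeq2, 5 and 218 with no filter on low counts, 5 and 223 with the GC and length correction, 11 and 814 with the libraries numbered 1 and 2 only, and 2 and 58 with male libraries only. Female libraries alone gave 0 and 5 in edgeR, with 5 guidance genes at an unadjusted p of 0.05. Leaving out 1 library gave 2 to 3 guidance genes and 77 (without male DRG 2) to 231 (without female TG 3) of all genes. The replicate numbers were not treated as a pairing, since the deviations of same-numbered TG and DRG libraries correlated at 0.028 to 0.216 and not above 0.1 for each pair, and 4 of 6 female and 4 of 6 male libraries correlated best with their own number. Across the sexes, 6 of 6 DRG and 0 of 6 TG libraries did. With a replicate block the counts were 8 and 562, and 7 and 684 with the replicate block and the GC and length correction together. The block left the calls of Epha6, Epha7 and Sema7a in place and the counts by the sex criteria within 1.5 times of the report's, but in TG it took the genes at an unadjusted p of 0.05 from 17 to 11 guidance genes and from 2898 to 1792 of all genes. Between the sexes in TG, the 8 guidance genes and 1033 genes meeting the criteria became 0 and 297 with the GC and length correction, 0 and 243 with the replicate block added, and 28 and 3475 with the libraries numbered 1 and 2 only. Leaving out 1 library gave 5 to 22 and 579 to 2521. In DRG, the 2 and 689 became 0 and 412, 0 and 382, and 14 and 1769 under the same settings, 7 guidance genes with library totals alone, and 0 to 14 and 372 to 1580 with 1 library left out. Among single guidance genes, 934 of the alternative values kept direction and side of the threshold, 62 passed it newly, 78 no longer passed it and 76, over 20 genes and comparisons, changed sign, none past the threshold before or after. For TG against DRG these were Ephb6 (-0.02 with DESeq2 and with RLE factors, -0.04 with the GC and length correction, -0.03 with the block and the correction, -0.27 with numbers 1 and 2, -0.32 in males), Sema4d (-0.03, -0.03, -0.14, -0.16, -0.20 and -0.28 in the same order, -0.04 with the block), Sema3f (-0.08 corrected, -0.03 with block and correction, -0.16 with numbers 1 and 2, -0.26 in males), Ephb4 (0.01 with library totals, 0.07 with the block, 0.30 in females), Ntn4 (-0.07 with the block, -0.13 with the correction too), Epha2 and Nrp1 (-0.00 and -0.02 in females), and Robo4, Robo2 and Efna1 (-0.08, 0.06 and 0.12 with numbers 1 and 2). Between the sexes in TG they were Robo1 (-0.01 corrected and -0.01 with the block too), Sema7a (-0.08, -0.12), Sema3b (-0.10, -0.16) and Epha4 (-0.03 with the block, -0.37 with numbers 1 and 2). In DRG they were Epha7 (-0.02 corrected, -0.01 with the block too, -0.16 with numbers 1 and 2), Robo2 (-0.14, -0.20, -0.16, and -0.06 with the block alone), Ephb4 (-0.02 with block and correction) and Robo1 (0.10 with library totals). With 1 library left out, sign changes gave ranges for TG against DRG of -0.32 to 0.02 (Efna1), -0.23 to 0.31 (Ephb4), -0.16 to 0.18 (Ephb6), -0.35 to 0.07 (Plxnd1), -0.32 to 0.07 (Robo2), -0.07 to 0.34 (Robo4), -0.17 to 0.22 (Sema3f) and -0.23 to 0.14 (Sema4d). For the sexes in TG the ranges were -0.36 to 0.18 (Epha4), -0.01 to 0.34 (Neo1) and -0.18 to 0.25 (Robo1), and in DRG -0.09 to 0.37 (Epha7), -0.12 to 0.95 (Ephb4), -0.30 to 0.17 (Robo1) and -0.48 to 0.32 (Robo2). The cause of these shifts was not tested. The depth limits Efna4, Ntn5 and Sema3a, which had libraries without reads.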
